A study of Mus musculus with 6 samples.

Results

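Expression of 10 genes of eicosanoid metabolism was followed in cultured mouse muscle-derived stem/progenitor cells (MDSPCs). They are Pla2g4a, Ptgs1, Ptgs2, Ptges, Ptgis, Ptgds, Alox5, Alox5ap, Hpgd and Ptger4, that is, 10 of the 21485 genes shared by all 6 count matrices. They form a list of lipoxygenase and prostanoid genes chosen by their CPM and share of cells in old against young populations in an earlier look at these matrices, in which Alox5 and Ptgis stood out. Their levels and shares of cells in old and young populations are therefore a description, given without a test. All 10 passed the filter on low counts for that comparison.

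Eicosanoids are signalling lipids made from arachidonic acid, a fatty acid that phospholipase A2 releases from membranes. Cyclooxygenases turn it into prostaglandin H2, which terminal synthases convert to prostaglandins E2, D2 or prostacyclin, whereas 5-lipoxygenase and its partner protein FLAP start the leukotriene branch. In muscle, prostaglandins are known as signals of injury and regeneration that act on satellite cells, the resident stem cells of the fibre, and 5-lipoxygenase is best known from leukocytes.

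MDSPCs are the slowly adhering cells left after repeated transfer of dissociated skeletal muscle to collagen-coated flasks. Per the labels, 3 populations came from young mice and 3 from old mice, all grown in proliferation medium with fetal bovine serum, horse serum and chick embryo extract and profiled by droplet-based 3′ single-cell RNA sequencing. The labels name each population a biological replicate and give no ages, sex, strain or treatment. Each carries a different culture name, and nothing says whether one is a clone or comes from pooled animals.

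Of 62849 barcodes, 61673 passed the filters, between 8674 and 12541 per population, with medians of 13001 to 19951 unique molecular identifiers (UMIs, tags that count an RNA molecule once). Levels are given in counts per 1000000 UMIs (CPM) scaled with TMM factors. A 3′ library gives 1 end per molecule, so levels of different genes were compared without scaling by length. Pairs of libraries shared 23 to 35 cell barcodes, at most 0.369% of the cells of either. Of the 9 myogenic markers, 7 had at least 500 counts in every population, while Myf5 had 1 count in young 1 and Pax7 5 counts in young 3. Levels were uneven: Myod1, a factor that sets muscle identity, was at 45.7 to 64.1 unscaled CPM in young 1, young 3 and old 1 and at 459 to 909 in young 2, old 2 and old 3. The populations are named below by group and replicate number. The model across all 14512 genes tested, with terms for gene list and age group, called 1 gene between old and young with edgeR (0.00689%) and 219 with DESeq2 (1.51%). Neither count is used to support a statement on the 10 genes.

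A set of 3 stretches of DNA before RefSeq transcription starts is shown, for Alox5, Ptgs2 and Ptgds. Alox5 had the largest gap between old and young populations. Ptgs2 and Ptgds moved in opposite directions with differentiation at a cut added after the data were seen. In the planned comparison edgeR called neither. The stretches are from RefSeq on build GRCm38.p6, written 5′ to 3′ on the strand of the gene. Capitals mark GGGCGG, the letters of a GC box, and the E-box letters CAGCTG and CAGGTG, a class of site that muscle bHLH factors can bind. CAGGTG reads CACCTG on the other strand.
Alox5, chr6:116461179-116461428, minus strand: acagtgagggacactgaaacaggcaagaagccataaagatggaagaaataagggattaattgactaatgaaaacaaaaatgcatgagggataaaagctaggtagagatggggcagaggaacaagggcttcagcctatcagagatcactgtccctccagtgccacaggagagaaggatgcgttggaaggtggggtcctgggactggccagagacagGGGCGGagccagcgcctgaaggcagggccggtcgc
Ptgs2, chr1:150099781-150100030, plus strand: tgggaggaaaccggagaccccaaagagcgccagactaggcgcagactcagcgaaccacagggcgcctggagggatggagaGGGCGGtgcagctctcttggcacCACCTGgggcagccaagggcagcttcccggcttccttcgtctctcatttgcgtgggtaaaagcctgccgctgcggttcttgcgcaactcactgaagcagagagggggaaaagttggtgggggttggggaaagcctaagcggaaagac
Ptgds, chr2:25469843-25469999, minus strand: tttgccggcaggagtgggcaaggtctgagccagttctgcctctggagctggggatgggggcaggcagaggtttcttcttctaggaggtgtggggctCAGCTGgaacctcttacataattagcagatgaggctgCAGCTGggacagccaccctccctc
The Ptgds stretch ends 94 bases before the start because an annotated exon of the gene begins there. In GENCODE the gene, on the minus strand, reaches to 25470046, so this stretch lies inside it, downstream of its outermost annotated start. The windows were searched on both strands over the 250 bases before the start. In Alox5 the GC box lay 35 bases before the start, and in Ptgs2 it lay 170 bases before it, with CAGGTG at 147. In Ptgds the 2 copies of CAGCTG lay 154 and 117 bases before the RefSeq start used, and so inside the annotated gene. Of 32851 windows of this length, 32.7% held GGGCGG, 17.2% held CAGGTG, 13% held CAGCTG and 1.26% held 2 or more copies of CAGCTG. Windows were found for 8 of the 10 genes. A match is a match of letters and not a measured site.

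Pla2g4a, cytosolic phospholipase A2, which frees arachidonic acid, was among the more abundant of the 10 in every population. It was at 87.5, 13.2 and 120.2 CPM in young 1, 2 and 3 and at 153, 34.4 and 64.4 CPM in old 1, 2 and 3. Young 2 and old 2 were lowest and the groups overlapped. The means were 73.6 ± 54.8 CPM in young and 84.0 ± 61.8 in old populations (SD, n = 3 each), and the fitted log2 fold change of old over young was -0.02 with a standard error (SE) of 0.82. This fold change was 1.42 without young 3 and -0.46 without young 2. Pla2g4a and Ptgs2 are neighbours on chromosome 1, 138740 bases apart on build GRCm38.

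Ptgs1 encodes cyclooxygenase 1, generally described as the constitutive form. Its level was 172, 2.33 and 78.3 CPM in young 1, 2 and 3 and 175, 37.2 and 54.0 CPM in old 1, 2 and 3. Young 2 stood far below the other 5, and the groups overlapped. The log2 fold change of old over young was 0.13 (SE 1.06), and it was 2.31 without young 3 and -0.46 without young 2.

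Ptgs2 encodes cyclooxygenase 2, the inducible form. It was at 262, 24.9 and 40.7 CPM in young 1, 2 and 3 and at 196, 15.3 and 32.5 CPM in old 1, 2 and 3. Young 1 and old 1 were the highest in each group, and these are also the 2 populations counted on the shorter of the 2 gene lists. The fitted log2 fold change of old over young was -0.44 (SE 0.36). Part of the cells carried many molecules: after each cell was thinned at random to 5000 UMIs, 53.8% of young 1 cells and 50.7% of old 1 cells had a Ptgs2 UMI, with up to 16 and 17 UMIs in a cell. In old 3 only 6.44% had one, yet a single cell again held 16.

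The 3 populations with the highest levels of Ptgs1, Ptgs2 and Pla2g4a were the same: young 1, young 3 and old 1. They are also the 3 with the lowest Myod1. This is a description over 6 populations, and its cause was not tested.

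Ptges, the inducible prostaglandin E synthase, was scarce. Its level was 0.618, 6.98 and 0.372 CPM in young 1, 2 and 3 and 1.59, 13.4 and 2.67 CPM in old 1, 2 and 3. Young 2 and old 2 were the highest in their groups, which overlapped, and the log2 fold change of old over young was 1.21 (SE 1.11). Without young 2 it was 3.01 and without old 2 it was 0.35.

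Ptgds, a prostaglandin D synthase that also carries small lipophilic molecules, was at 0.963, 5.72 and 0.279 CPM in young 1, 2 and 3 and at 0.703, 11.7 and 2.21 CPM in old 1, 2 and 3. The same populations, young 2 and old 2, were again the highest of each group. The log2 fold change of old over young was 0.67 (SE 1.22), and it was -0.45 without old 2 and 2.235 without young 2.

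Ptgis, prostacyclin synthase, was high in 1 population only. It was at 0.132, 2.84 and 0.0636 CPM in young 1, 2 and 3, at 0.227 and 3.05 CPM in old 1 and 2 and at 96.5 CPM in old 3. Old 3 lay 31.7-fold above the next highest population, old 2, while the other 2 old populations lay within the young range or just above it. The fitted log2 fold change of old over young, 3.99 with an SE of 2.22, was 0.94 without old 3. Of the cells thinned to 5000 UMIs, 33.4% in old 3 had a Ptgis UMI (95% Wilson interval 32.6 to 34.2, counting error only), against 1.38% in young 2, 1.49% in old 2 and at most 0.101% in the other 3. Without thinning the share in old 3 was 60.9%.

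Ptgis lies on chromosome 2 (167191805 to 167240604, minus strand, GRCm38) and overlaps 1110018N20Rik and Gm14291, and no source used here says whether counting used strand. The 5 neighbours reported, Ddx27, Znfx1, B4galt5, Slc9a8 and Spata2, had log2 fold changes of old over young between -0.26 and 0.16. The genes whose pattern over the 6 populations was most like Ptgis, by the root mean square difference of centred log2 CPM, were Gbp6 at 0.92, Actn3 at 1.13 and Apobec2 at 1.17 log2 units, where Ptgis itself spanned 10.3. Actn3, a structural protein of fast muscle fibres, was at 66.7 CPM in old 3 and at most 12.7 in the other 5.

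Alox5, encoding 5-lipoxygenase, was the only one of the 10 whose old and young populations did not overlap. It was counted 10, 24 and 9 times in young 1, 2 and 3, or 0.0883, 0.125 and 0.0440 CPM. In old 1, 2 and 3 it was counted 2887, 11975 and 16423 times, or 17.2, 64.6 and 95.2 CPM. All 3 old populations lay far above all 3 young ones, and old 1 was lowest among the old. Of all genes tested, 6.05% had no overlap, 3.63% with the old populations higher and 2.42% with them lower. The means were 0.0856 ± 0.0403 CPM in young and 59.0 ± 39.3 in old populations (SD, n = 3 each).

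Pooled over populations, the Alox5 rate in old was 734 times that in young, with an exact 95% interval of 544 to 1014 that covers counting error only and not the spread between populations. The fitted log2 fold change was 9.20 (SE 0.80) and lay between 8.64 and 9.88 in 14 alternative fits, the lowest without young 3. Alox5 was chosen for this difference and the fits reuse the same values, so neither the SE nor the fits are independent support. The plot of levels by population sets it beside the other 9 genes.

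**Figure D1:**
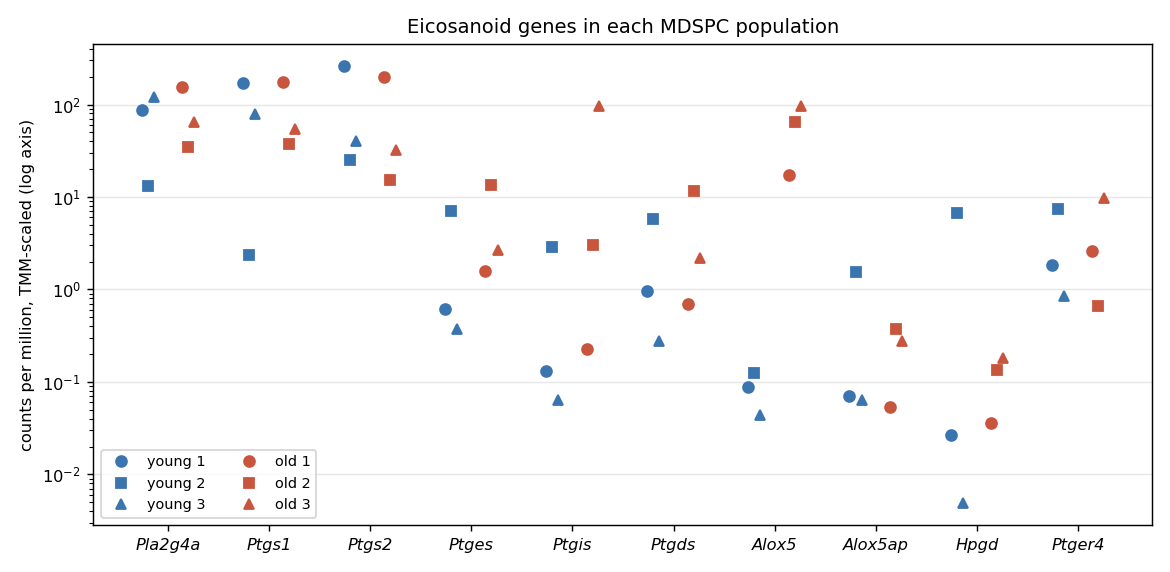
Level of each of the 10 eicosanoid genes in each MDSPC population, in TMM-scaled CPM on a log axis; blue points are young and red points old populations, and the marker shape gives the replicate number. For Alox5 the 3 old populations lie between 17.2 and 95.2 CPM and the young ones at or below 0.125, while for the other 9 genes the groups overlap.

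After thinning to 5000 UMIs, an Alox5 UMI was found in 7.81% of old 1 cells (95% Wilson interval 7.30 to 8.36), 26.8% of old 2 cells (25.9 to 27.7) and 35.9% of old 3 cells (35.0 to 36.7). In young 1, 2 and 3 the shares were 0.0237%, 0.0658% and 0.00941%, from 2, 7 and 1 cells. No cell type in these cultures is known to lack the gene, so the share that free RNA gives could not be measured within a population. Without thinning the shares were 17.0%, 65.3% and 64.3% in old 1, 2 and 3 and at most 0.222% in the young.

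Most cells with Alox5 held a single molecule of it at this depth. Cells with Alox5 held on average 1.23, 1.22 and 1.29 UMIs of it in old 1, 2 and 3 after thinning. The plot of UMIs per cell gives the same beside Ptgis. With the Alox5 molecules spread at random over the cells, 9.14%, 27.9% and 37.2% of cells in old 1, 2 and 3 would have had one. The shares found were 7.81%, 26.8% and 35.9%.

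**Figure D2:**
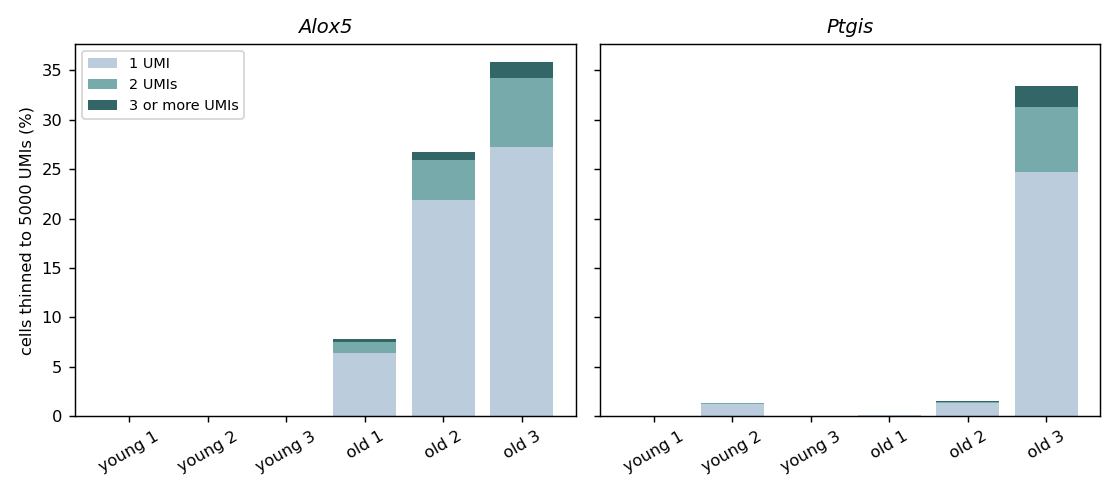
Percentage of cells thinned to 5000 UMIs that held 1, 2 or at least 3 UMIs of Alox5 (left) or Ptgis (right) in each population. Alox5 cells appear in all 3 old populations, at 7.81%, 26.8% and 35.9%, whereas Ptgis cells are frequent only in old 3, at 33.4%.

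Alox5 lies on chromosome 6 (116410077 to 116461178, minus strand, GRCm38) and overlaps no other annotated gene. Its 6 neighbours examined, Washc2, Zfand4, March8, Olfr212, Gm5580 and Zfp422, had log2 fold changes of old over young between -0.45 and 0.39. The 3 genes most alike to it over the 6 populations were Gpx3, an extracellular glutathione peroxidase, at a root mean square difference of 0.67 log2 units, Atp6v0e2 at 1.30 and Gstm4 at 1.30, where Alox5 itself spanned 10.7. Gpx3 was at 0.00489 to 0.145 CPM in the young and at 10.0, 58.8 and 37.9 CPM in old 1, 2 and 3. They were chosen for this pattern, so the likeness carries no test.

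Leukocyte markers had low sums in all 6 populations, though not all of them were near 0. Tyrobp was at 0 in all 6 populations, Ptprc (CD45) was counted at most 8 times, and the 10 leukocyte markers summed to 2.53 to 9.11 unscaled CPM in young and 2.88 to 7.50 in old populations. Cd68 was counted 210 to 979 times, the most in young 1 at 7.33 unscaled CPM, and Fcer1g 99 to 395 times, the most in old 1. Laptm5 was counted 3, 50 and 1 times in young 1, 2 and 3 and 10, 221 and 67 times in old 1, 2 and 3. In the same order Itgam was counted 0, 2 and 5 times and 1, 15 and 55 times. Lyz2 was highest in young 1, at 69 counts, Cd52 in old 1, at 32, and Adgre1 in old 2, at 9. Csf1r was counted 607 times in young 2 and 8 to 47 times in the others. The 7 mast cell markers summed to at most 0.383 unscaled CPM, with Tpsb2 and Fcer1a at 0 throughout.

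Within old 1, the cells with Alox5 differed from the rest in muscle markers. After thinning, Myod1 was found in 45.3% of Alox5-positive and 13.2% of Alox5-negative cells, Chrna1, an acetylcholine receptor subunit of muscle, in 71.3% and 23.8%, and Pax7, the satellite cell factor, in 16.5% and 4.60%. Ltc4s, which makes leukotriene C4, was found in 52.8% against 27.3%, and Ptgs2 in 28.0% against 52.6%. In old 2 and old 3 the shares lay closer: Myod1 was in 81.0% against 73.0% and 95.1% against 91.3%, and Ptgs2 in 6.80% against 6.95% and 5.70% against 6.86%. These are shares of cells within 1 sample each and were not tested across samples. Without thinning, 65.3% of old 2 and 64.3% of old 3 cells had an Alox5 UMI. Many cells counted there as Alox5-negative thus carried it, so close shares in these 2 populations say little.

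Cyba, an NADPH oxidase subunit, was also nearly confined to the old populations, at 2.50, 109.5 and 73.3 unscaled CPM in old 1, 2 and 3 and at most 0.00530 in the young. Its share was similar in cells with and without Alox5, at 0.904% and 1.14% in old 1, 36.1% and 34.4% in old 2 and 24.0% and 23.8% in old 3. The limit just given for old 2 and old 3 holds here too.

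**Figure D3:**
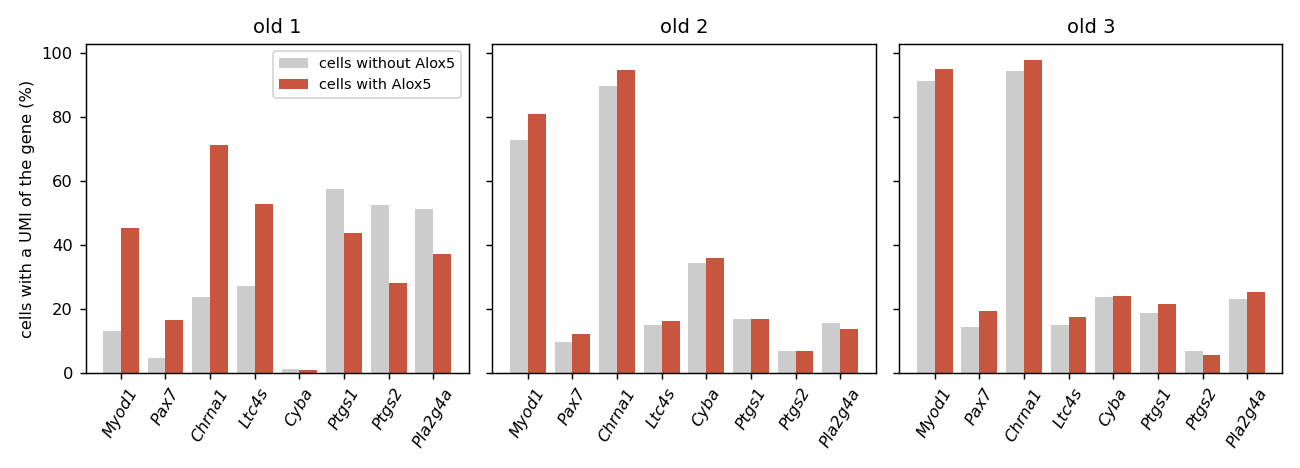
Percentage of cells with a UMI of 8 genes among cells without (grey) and with (red) an Alox5 UMI in old 1, old 2 and old 3, all thinned to 5000 UMIs. In old 1 Myod1, Pax7, Chrna1 and Ltc4s are more frequent and Ptgs1, Ptgs2 and Pla2g4a less frequent in Alox5-positive cells, and in old 2 and old 3 the bars lie close together.

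Tested over the 3 old populations, cells with and without Alox5 differed in 4 of 12587 genes (0.0318%; 25 with DESeq2), all lower in Alox5-positive cells: Tnnc2, Tcap, Cyp1a1 and Actc1, named after their values were seen. Of these, Tnnc2, Tcap and Actc1 are genes of the contractile apparatus, and the log2 fold changes ran from -2.07 to -1.37. None of the 7 eicosanoid genes tested was called by edgeR or DESeq2, with 1, Ptgs2 at -0.80 (SE 0.23), at an unadjusted p under 0.05, beside 5.66% of all genes. Without old 2 its log2 fold change was -1.05 with an edgeR adjusted p of 0.0115. Many cells of old 2 and old 3 without an Alox5 UMI after thinning had one at full depth. The small number of calls therefore does not show that the cells were alike.

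Alox5ap encodes FLAP, which presents arachidonic acid to 5-lipoxygenase. It was at 0.0707, 1.54 and 0.0636 CPM in young 1, 2 and 3 and at 0.0536, 0.377 and 0.278 CPM in old 1, 2 and 3. Young 2 was the highest and the groups overlapped, with a log2 fold change of old over young of -1.02 (SE 1.15) that was 1.17 without young 2. After thinning, at most 0.667% of the cells of any population had an Alox5ap UMI. Among the Alox5-positive cells of old 1, 2 and 3, the share with Alox5ap was 0.258%, 0.307% and 0.115%, from 2, 7 and 5 cells. Among the Alox5-negative cells it was 0.0110%, 0.160% and 0.103%. With so few cells little can be read from the difference.

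Hpgd, the dehydrogenase that starts the breakdown of prostaglandins, was found mainly in young 2. It was counted 3, 1297 and 1 times in young 1, 2 and 3 and 6, 25 and 31 times in old 1, 2 and 3. Its level in young 2 was 6.73 CPM and in the others at most 0.180 CPM. The log2 fold change of old over young was -3.23 (SE 2.50), and without young 2 it was 2.65.

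Ptger4, the EP4 receptor for prostaglandin E2, was at 1.85, 7.40 and 0.856 CPM in young 1, 2 and 3 and at 2.60, 0.668 and 9.67 CPM in old 1, 2 and 3. Young 2 and old 3 were highest, and the groups overlapped. The log2 fold change of old over young was 0.38 (SE 1.14), and it was -1.20 without old 3 and 1.65 without young 2. Ptger4 overlaps Ttc33 and Gm15937, so part of its counts could belong to those genes.

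Of the other 66 genes listed for the pathway, 63 were in the shared list and 49 passed the filter. Their most abundant members were Anxa1 at a mean of 685 CPM, Ptges3 at 448, Akr1b3 at 344 and Mgst3 at 119.8. None of the 49 was called between old and young by edgeR, and 3 had an unadjusted p under 0.05, Acsl4, Anxa1 and Ltb4r2, beside 3.53% of all genes. Their median log2 fold change was 0.23, beside -0.01 for all genes, and 4 of the 49 did not overlap with old higher and 2 with old lower, beside 3.63% and 2.42% of all genes. Acsl4, which activates arachidonic acid for storage in phospholipids, was at 37.3 to 51.1 CPM in young and 66.0 to 102 CPM in old populations, a log2 fold change of 0.89 (SE 0.24). Anxa1, a lipid-binding protein that restrains phospholipase A2 activity, was at 525 to 1109.6 CPM in young and 483 to 517 in old populations, a log2 fold change of -0.81 (SE 0.32). DESeq2 called 1 of the 49, Prxl2b, a prostaglandin F synthase at 0 in 2 of the young populations and at most 2.19 CPM in any.

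The choice of the genes did not use differences between cells of one population, so these were tested. Alox5 had at most 14 counts per class in young populations and passed the filter only through the old ones, so it is not counted among the genes tested in comparisons that include both. MDSPC cultures hold some cells that have begun to differentiate. Cells were scored by the UMIs of 20 genes of late myogenesis (Myog, Mymk, sarcomere genes) after thinning, and counts were summed per population and class. The planned comparison set cells at or above the 90th percentile of each population against those at or below the 50th. With edgeR it called 393 of 13030 genes (3.02%, 2.55% higher and 0.468% lower) and none of the 8 eicosanoid genes tested. The lowest edgeR adjusted p was 0.0733 for Ptgis, 5 of the 8 had an unadjusted p under 0.05, beside 36.6% of all genes, and DESeq2 called 5, Ptgs2, Ptges, Ptgis, Ptgds and Pla2g4a, beside 28.7% of all genes. The edgeR test called Ptgis without old 3 at 4.83 (adjusted p 0.0400) and with the stricter split at 4.41 (adjusted p 0.0476). In young 1, young 3 and old 1 the top class began at only 3 or 4 UMIs. Over the 6 populations, Ptgs2, Pla2g4a and Ptges were lower in the top class of 5 and Ptgs1 in that of 4. Ptgds was higher in that of 5 and Ptgis in that of 6. In old 1, Ptgs2 was at 218 unscaled CPM in the high and 212 in the low class. Pla2g4a was there at 178 and 164, Ptgs1 at 205 and 188 and Ptgds at 0.774 and 0.857.

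A cut at the same number of UMIs in all populations was added after these values were seen: 20 or more against 2 or fewer. It left out old 1, which had 39 cells above the cut. The 5 populations used held between 118 and 4607 differentiating cells, or 1.11% to 37.9% of their cells. It called 5642 of 12684 genes (44.5%), with 20.5% higher and 24% lower in differentiating cells. Of the 8 eicosanoid genes tested, 6 were called, 2 higher and 4 lower. The self-test on simulated counts at this design recovered 77% of genes changed by 1 log2 unit and 91% of those changed by 2, with 12 false calls. It changed only 100 of 12704 genes by each amount, far fewer than were called here. Its rates therefore need not hold for these data.

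At this cut, differentiating cells had less RNA of Ptgs2, Pla2g4a and Ptgs1, the genes for enzymes that open the prostanoid branch. Ptgs2 was at 98.4, 16.0, 13.7, 3.74 and 8.63 unscaled CPM in the differentiating cells of young 1, 2 and 3 and old 2 and 3, and at 236, 31.4, 45.2, 22.7 and 84.7 in the undifferentiated cells. It was lower in the differentiating cells of 5 of 5 populations. The log2 fold change was -1.91 (SE 0.38, edgeR adjusted p = 0.00987).

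Pla2g4a was at 22.0, 8.48, 44.8, 7.63 and 25.7 unscaled CPM in the same differentiating cells and at 77.3, 13.3, 131, 47.4 and 101 in the undifferentiated. It was lower in 5 of 5 populations, with a log2 fold change of -1.67 (SE 0.27, edgeR adjusted p = 0.00371). Ptgs1 was lower in 5 of 5 too, at -1.09 (SE 0.21, edgeR adjusted p = 0.00712), although in young 2 its level was 1.93 against 1.94. Ptges fell by 1.30 on the log2 scale (SE 0.27, edgeR adjusted p = 0.00713). Its direction held in 4 of 5, young 3 having a single Ptges count in its differentiating cells.

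Ptgds moved the other way. It was at 7.71, 13.4, 5.97, 30.5 and 5.11 unscaled CPM in the differentiating cells of young 1, 2 and 3 and old 2 and 3, and at 0.529, 2.35, 0.240, 7.27 and 0.101 in the undifferentiated. It was higher in 5 of 5 populations, with a log2 fold change of 3.30 (SE 0.50, edgeR adjusted p = 0.00327).

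Ptgis was higher in 5 of 5 as well, with a log2 fold change of 4.05 (SE 1.21, edgeR adjusted p = 0.0424). In young 3 that direction rests on 1 count in differentiating against 8 in undifferentiated cells, and in young 1 on 7 against 5 counts. In young 2 it was at 17.0 unscaled CPM in differentiating and 0.0941 in undifferentiated cells, and in old 2 at 16.2 and 0.564. In old 3 the levels were 114 and 68.2, so there undifferentiated cells carried it too. The call did not hold without young 1, young 2, young 3 or old 2, the adjusted p rising to between 0.0506 and 0.192. The calls of the other 5 genes held in each fit that left out 1 population.

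Ptger4 was not called, at -0.56 (SE 0.20, edgeR adjusted p = 0.0537), nor was Alox5ap, at 0.02 (SE 0.41, edgeR adjusted p = 0.975). Alox5 and Hpgd did not pass the filter. At this cut Alox5 was at 64.5 and 62.5 unscaled CPM in the differentiating and undifferentiated cells of old 2 and at 82.2 and 76.9 in those of old 3. By percentiles it was at 31.8 in the high and 16.3 in the low class of old 1, at 64.4 and 62.5 in old 2 and at 41.9 and 92.3 in old 3. It was thus higher in the high class of old 1, lower in that of old 3 and close in old 2. The plot of levels by differentiation class gives the 6 genes called.

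**Figure D4:**
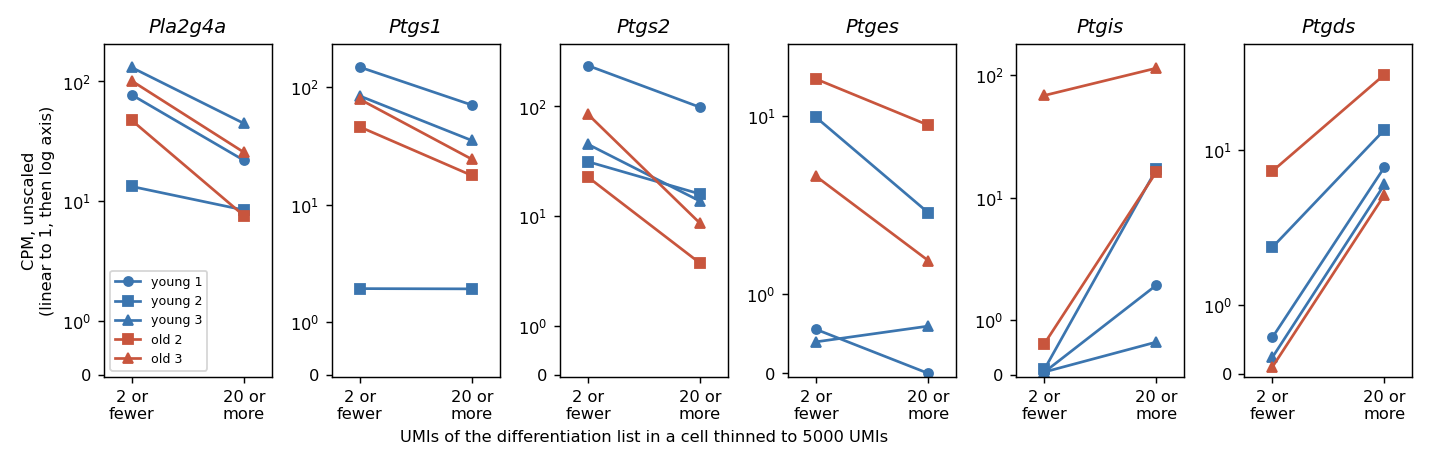
Unscaled CPM of 6 eicosanoid genes in undifferentiated cells (2 or fewer UMIs of the differentiation list) and differentiating cells (20 or more) of the same population, joined by a line; the axis is linear up to 1 and logarithmic above, young populations are blue and old red. Ptgs2 and Pla2g4a fall along all 5 lines and Ptgds and Ptgis climb along all 5, with Ptgis of old 3 high in both classes.

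Of 34 other pathway genes tested at this cut, 6 rose and 10 fell, beside 20.5% of all genes higher and 24% lower, so the share called was near that of all genes. Their median was 0.06 beside -0.05 for all genes. The genes that rose most were Dpep1, a dipeptidase that converts leukotriene D4, at 4.37 (SE 0.49), Ptgr2 at 1.08 (SE 0.10), Acsl4 at 0.69 (SE 0.09) and Akr1b8 at 0.56 (SE 0.13). Those that fell most were Slco2a1, the prostaglandin transporter, at -3.35 (SE 0.34), the phospholipase Pla2g4c at -1.77 (SE 0.48), the epoxide hydrolase Ephx1 at -1.61 (SE 0.12) and Pla2g7 at -1.08 (SE 0.23). In the planned comparison by percentiles, 2 of the 34 were called, Dpep1 at 4.10 (SE 0.74) and Acsl4 at 0.56 (SE 0.11), both higher.

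Cells were also split by 30 proliferation genes, cells at or above the 75th percentile of each population against those at or below the 25th. The comparison called 6249 of 12851 genes (48.6%). Of the 7 eicosanoid genes tested only Ptgds was called, at -1.87 (SE 0.44, edgeR adjusted p = 0.0105), lower in the proliferating cells of 5 of 6 populations. It remained called under all 11 alternatives, with adjusted p between 6.23e-05 and 0.0417. In old 3 its unscaled level was 0.450 CPM in proliferating and 5.42 in non-proliferating cells. Ptgis was at -1.40 (SE 0.49, edgeR adjusted p = 0.0545), with adjusted p of 0.0132 to 0.170 over the alternatives, the lowest without old 3.

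Ptgs1, Ptgs2, Pla2g4a, Ptges and Ptger4 were not called between proliferating and other cells, with log2 fold changes from -0.48 to 0.28. Without old 2, Ptgs2 (-0.53, edgeR adjusted p = 0.00487) and Ptger4 (-0.66, edgeR adjusted p = 0.00652) were called, and Ptger4 also on thinned counts (-0.53, edgeR adjusted p = 0.0133). Of 35 other pathway genes tested, 15 fell in proliferating cells, 1 rose and 19 were not called, beside 27.3% of all genes lower and 21.4% higher. The riser was Ptges3, a cochaperone also known as cytosolic prostaglandin E synthase, at 0.36 (SE 0.05). The largest falls were those of Dpep1 at -1.71 (SE 0.30), Prxl2b at -1.26 (SE 0.28), Cyp4f13 at -0.87 (SE 0.14) and Pla2g2e at -0.74 (SE 0.19).

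A split by 13 immediate-early genes, the first to answer growth signals, called 6 of 13260 genes (0.0452%) and none of the 8 eicosanoid genes by edgeR or DESeq2. Ptgs2, itself known as an immediate-early gene, was at 0.70 (SE 0.25, edgeR adjusted p = 0.325). A total of 5 of the 8 had an unadjusted p under 0.05, beside 13.6% of all genes. In old 3 Ptgs2 was at 64.3 unscaled CPM in the high and 15.6 in the low class, whereas in young 2 it was at 26.3 and 23.6. The classes lay within 1 UMI of a cut for over 90% of cells, so they are ranges and not cell types. A split by 15 p53 target genes called 58 of 12905 genes (0.449%, 0.411% higher and 0.0387% lower) and none of the 7 eicosanoid genes by edgeR or DESeq2, with 1, Ptges at 0.46 (SE 0.19), at an unadjusted p under 0.05, beside 12.0% of all genes.

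Whether any of these class differences was larger in old than in young populations was tested for all genes. The edgeR test called none in the proliferation, differentiation, immediate-early or p53 split, with 178, 125, 336 and 125 genes at an unadjusted p under 0.05. DESeq2 called 1 gene in the proliferation split, not an eicosanoid gene, and none in the others.

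Genes for successive steps were also compared within cells. In comparisons added after the data were seen, cells with a UMI of 1 of the genes were set against cells without, at 5000 UMIs per cell, over the populations with at least 50 cells of each kind. Cells with Ptgs2 differed in 1102 of 12190 genes (9.04%, 2.49% higher and 6.55% lower), and in 5 of the 6 other eicosanoid genes tested: Pla2g4a, Ptges, Ptger4 and Ptgs1 were higher and Ptgds was lower.

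Pla2g4a was at 93.0, 23.4 and 160.0 unscaled CPM in the Ptgs2-positive cells of young 1, 2 and 3 and at 225, 64.3 and 119 in those of old 1, 2 and 3. In the Ptgs2-negative cells it was at 61.7, 12.4 and 129 and at 116, 33.4 and 56.4. It was higher in 6 of 6 populations, with a log2 fold change of 0.71 (SE 0.09, edgeR adjusted p = 0.00437), and it was called under all 8 alternatives, with adjusted p between 5.37e-10 and 0.0263.

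Ptges (0.68, SE 0.19, edgeR adjusted p = 0.0426), Ptger4 (0.61, SE 0.15, edgeR adjusted p = 0.0313) and Ptgs1 (0.41, SE 0.09, edgeR adjusted p = 0.0241) were each higher in 6 of 6 populations. Those 3 calls depended on single populations: without any one population Ptges was not called (adjusted p 0.0502 to 0.116), Ptger4 was called only without old 1, and Ptgs1 was not called without young 1, young 2, old 1 or old 2 (0.0511 to 0.112). Ptgds was lower in Ptgs2-positive cells of 6 of 6 populations, at -1.32 (SE 0.23, edgeR adjusted p = 0.00565), with adjusted p of 0.00109 to 0.0310 over 7 alternatives.

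Differentiating cells are poor in Ptgs2 and Pla2g4a alike, so the comparison was repeated among cells with 2 or fewer UMIs of the differentiation list. There Ptgs2-positive cells differed in 7.67% of genes. They had more Pla2g4a, at 0.59 (SE 0.09, edgeR adjusted p = 0.00514), and more Ptgs1, at 0.30 (SE 0.08, edgeR adjusted p = 0.0403). Ptges at 0.56 and Ptger4 at 0.51 were no longer called (edgeR adjusted p = 0.145 and 0.0894). Ptgds was not tested there. The list holds late genes only. Over all thinned cells, Myod1 was in 11.3%, 73.6% and 11.8% of Ptgs2-positive cells of young 1, 2 and 3, against 25.1%, 80.4% and 16.5% of Ptgs2-negative cells. In old 1, 2 and 3 it was in 9.86%, 61.2% and 73.1% against 21.7%, 76.1% and 94.0%. Whether earlier myogenic state goes with the shared levels of Ptgs2 and Pla2g4a was not tested.

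The reverse comparisons share cells with these and are not independent of them. Pla2g4a-positive cells differed in 15.3% of genes (5.37% higher, 9.89% lower) and had more Ptgs2, at 0.73 (SE 0.13, edgeR adjusted p = 0.0177), more Ptgs1, at 0.32 (SE 0.05, edgeR adjusted p = 0.00137), and less Ptgis, at -0.44 (SE 0.14, edgeR adjusted p = 0.0430), each in 6 of 6 populations. For Ptgis the direction rests on few counts in the positive cells: 0 in young 1, 1 in young 3, 3 in old 1, 7 in young 2 and 9 in old 2. Among cells with few differentiation UMIs, Ptgs2 was at 0.59 (SE 0.13, edgeR adjusted p = 0.0386) and Ptgs1 at 0.22 (SE 0.04, edgeR adjusted p = 0.000407). The call of Ptgs2 did not hold without old 1 (0.70, adjusted p 0.0886) or without old 2 (0.74, adjusted p 0.0655), and that of Ptgis in none of its 4 alternatives: DESeq2 (adjusted p 0.126) and the fits without young 1, young 3 or old 1 (0.0774 to 0.0810). Ptgds in these cells was not called, at -1.10 (SE 0.33, edgeR adjusted p = 0.0568), though it was with DESeq2 (-1.10, adjusted p 0.0252), without young 2 (-1.35, adjusted p 0.0322) and without old 3 (-0.78, adjusted p 0.0260).

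Ptgs1-positive cells differed in 8.66% of genes (2.93% higher, 5.73% lower). They had more Pla2g4a, at 0.33 (SE 0.06, edgeR adjusted p = 0.00969), in 5 of 6 populations, and less Ptgds, at -0.84 (SE 0.23, edgeR adjusted p = 0.0344), also in 5 of 6. Pla2g4a was called under all 8 alternatives, while Ptgds was not without young 1, old 1 or old 2 (adjusted p 0.0571 to 0.0844). Ptgs2 in these cells was not called, at 0.53 (SE 0.18, edgeR adjusted p = 0.153), though it was without old 3 (0.36, adjusted p 0.00167) and with DESeq2 (0.56, adjusted p 0.0198). Cells with the EP4 receptor gene Ptger4 differed in 4.28% of genes over 5 populations (0.546% higher, 3.74% lower), 510 genes with edgeR against 140 with DESeq2. They had more Ptgs2, at 0.40 (SE 0.09, edgeR adjusted p = 0.000900), in 5 of 5. This p rests on a spread that edgeR pooled over all genes, not on that of Ptgs2 over the 5 populations. The call was lost without old 3 (0.27, edgeR adjusted p 0.156) and among cells with few differentiation UMIs (0.29, edgeR adjusted p 0.303).

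**Figure D5:**
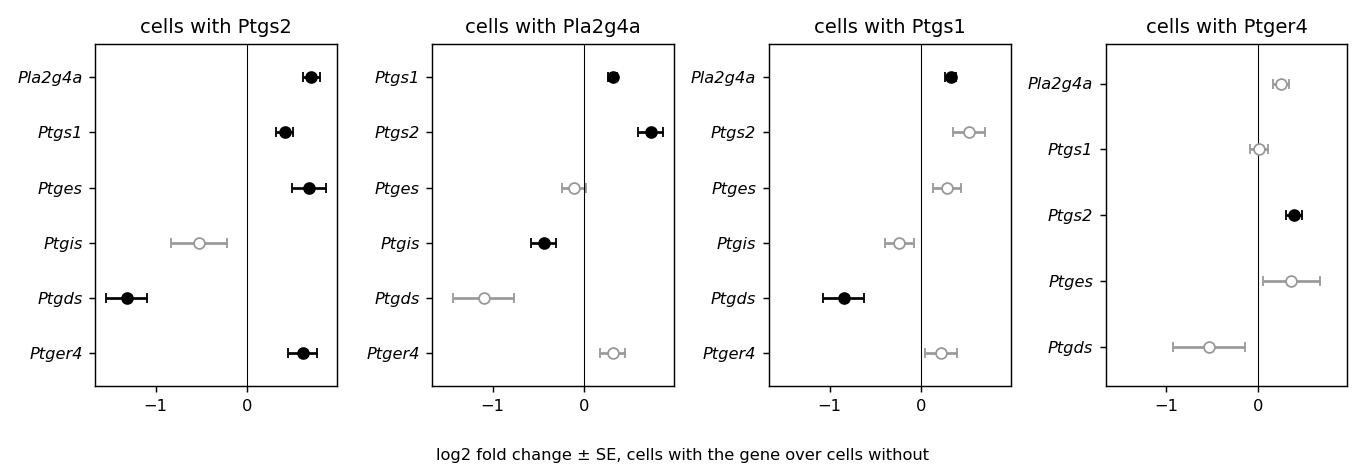
Log2 fold change with its model-based SE of each other eicosanoid gene tested except Alox5 in cells with a UMI of Ptgs2, Pla2g4a, Ptgs1 or Ptger4 over cells without, at 5000 UMIs per cell; filled black points have an edgeR adjusted p under 0.05 and open grey points do not. Pla2g4a, Ptgs1 and Ptgs2 lie to the right of 0 in each other's positive cells, and Ptgds lies to the left in all 4 panels.

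Cells with Ptgis, Ptgds or Ptges were compared in the 3 or 4 populations that had enough of them. They differed in 0%, 1.53% (0.883% higher, 0.643% lower) and 0.898% (0.165% higher, 0.733% lower) of genes. For Ptgis-positive cells edgeR thus called 0 genes, with 921 at an unadjusted p under 0.05, and DESeq2 called 59. For Ptges-positive cells edgeR called 109 and DESeq2 15. None of the 7, 6 and 6 eicosanoid genes tested was called by edgeR or DESeq2, with 1, 2 and 1 at an unadjusted p under 0.05, beside 7.42%, 13.9% and 7.17% of all genes. Fits that leave out 1 of 3 populations rest on the other 2. Without old 3, the population in which Ptgis was widespread, Ptgis-positive cells had less Ptgs2 (-2.11, edgeR adjusted p = 0.000899), less Ptgs1 (-1.38, 0.0394) and more Ptgds (1.35, 0.0102), and Ptgds-positive cells had more Ptgis (1.41, 0.00378) and less Ptgs2 (-0.97, 0.00189), Ptgs1 (-0.70, 0.0306) and Pla2g4a (-0.73, 0.00755). The Ptgs2 values of Ptgis-positive cells there rest on 3 counts in 147 cells of young 2 and 3 counts in 127 cells of old 2. Little can be read from them. In Ptgds-positive against negative cells Pla2g4a was at 13.1 against 13.5 unscaled CPM in young 2 and at 18.0 against 36.5 in old 2. Ptgs1 had 0 counts in the Ptgds-positive cells of young 2. The Pla2g4a and Ptgs1 calls without old 3 thus rest mainly on old 2. In Ptgds-positive cells Ptgs1 was also called without old 2 (-1.79, 0.0386) and Pla2g4a without young 2 (-1.62, 7.02e-05). These cells held 0 Ptgs1 counts in young 2 and 8 in old 3, and 39 Pla2g4a counts in old 2 and 3 in old 3. Little can be read from these 2 calls either.

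Of 32 other pathway genes tested in Ptgs2-positive cells, 3 were higher and 4 lower, beside 2.49% and 6.55% of all genes. The 3 were Abcc4 and Abcc1, pumps that can export prostaglandins and leukotrienes, at 0.44 (SE 0.11) and 0.33 (SE 0.06), and Ephx1 at 0.27 (SE 0.07). The 4 were Dpep1 at -1.58 (SE 0.35), Ltc4s at -0.55 (SE 0.14), Ptgr2, which reduces prostaglandin metabolites, at -0.24 (SE 0.07), and the aldo-keto reductase Akr1b3 at -0.21 (SE 0.04).

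Of 30 tested in Pla2g4a-positive cells, 3 were higher and 4 lower, beside 5.37% and 9.89% of all genes. Abcc4 at 0.41 (SE 0.09), Ephx1 at 0.30 (SE 0.06) and Abcc1 at 0.19 (SE 0.05) were higher. Dpep1 at -1.38 (SE 0.32), Akr1b8 at -0.22 (SE 0.06), Ptgr2 at -0.19 (SE 0.06) and Akr1b3 at -0.19 (SE 0.04) were lower. In Ptgs1-positive cells 2 of 30 were called, Ephx1 at 0.40 (SE 0.06) and Abcc4 at 0.38 (SE 0.06), both higher. In Ptger4-positive cells 3 of 31 were called, all lower: Dpep1 at -1.47 (SE 0.45), Akr1b8 at -0.37 (SE 0.10) and Akr1b3 at -0.24 (SE 0.06).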

How the data were processed

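Counts are whole UMIs per gene and cell. The authors deposited raw count matrices made with Cell Ranger, version 7.0.0 for young 1 and old 1 and 7.2.0 for the other 4, per the file headers. Per the submitters' processing notes, the tools were Cell Ranger 7.2.0 and Seurat 5.134 and the build was mm10. The annotation release and the handling of introns and strand are not given in the sources used here. The matrices use gene lists of 21849 and 32285 features that share 21485 identifiers, 1762 of them with a different symbol, and the shared ones were used. Cells had at least 1000 UMIs and 500 genes and under 15% mitochondrial UMIs, from 13 genes. No doublet caller was run, and an alternative dropped the deepest 8% of cells. Total counts in shared genes were 133608357 to 193380549 per sample, so 3 counts, the limit that a count of 0 allows, are 0.0155 to 0.0225 CPM.

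Counts were summed per sample, or per sample and cell class, and compared by the quasi-likelihood test of edgeR 4.0.16 under R 4.3.3. TMM factors, filterByExpr and robust dispersions were used, tests were two-sided, and a gene was called at a Benjamini-Hochberg adjusted p under 0.05 over all genes. Old against young had a term for the gene list, and comparisons of cell classes had the sample as a block. SE is the absolute log2 fold change over the square root of F. P-values rest on the spread between these populations, which edgeR pools in part over all genes. In Ptger4-positive and Ptges-positive cells it was pooled almost fully for most members. There an edgeR p-value does not measure a gene's own spread between populations. DESeq2 1.42.0 was an alternative. For shares and classes each cell was thinned to 5000 UMIs, which left out 539 young and 829 old cells. Classes of under 50 cells were not used. Classes by proliferation, immediate-early and p53 genes took the 75th and 25th percentiles, and by differentiation the 90th and 50th. The likeness of genes used log2 CPM with a prior count of 2.

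The members, lists and tests were chosen with earlier results of these data known. Named genes were all 10 members, every called gene of the rest of the pathway list up to 4 per direction and contrast by absolute log2 fold change, its 4 most abundant genes, and the 3 genes most like Alox5 and Ptgis. Other genes named were chosen after their values were seen. The labels do not say that replicate numbers pair the samples, and the main fit did not treat them as paired. The correlation of same-numbered deviations was 0.378, 0.224 and -0.0814, the first being the highest of all pairs. Pairs of unlike number had -0.408 to 0.276. Whether samples of the same number share a batch was not tested. Positions are from GENCODE vM21 on GRCm38. A result on a neighbouring gene is not reported here. The fits were tested on simulated data. For old against young they recovered 1% of genes changed by 1 log2 unit and 13% of those changed by 2.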

Additional observations from a re-analysis of the deposited data

How the results depend on the processing

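The number of genes called between old and young was 1, and it was 219 with DESeq2, 0 without the gene list term and on the longer list only, 1 with the replicate number as a block, and 0 to 3 when 1 population was left out. DESeq2 called 1 of the other pathway genes where edgeR called none, and 1 gene for the difference between young and old in the proliferation split. In the differentiation split 393 genes were called, against 3744 with DESeq2, 1613 with the stricter split, 5642 at the fixed cut and 90 to 741 without 1 population. In the immediate-early split 6 were called, against 207 with DESeq2, 41 without a filter, 10 with the stricter split, 32 on thinned counts, 14 without the deepest cells and 1 to 37 without 1 population. In the p53-target split 58 were called, against 302 with DESeq2, 28 with the stricter split, 36 without the deepest cells and 0 to 336 without 1 population. The cause of these shifts was not tested. The number of genes called in the proliferation split was 5253 to 6491 over its alternatives. Leaving out 1 population gave 0 to 1 called members in Alox5-positive cells, 1 to 3 in Ptgs1-positive, 2 to 3 in Ptgs2-positive, 1 to 3 in Pla2g4a-positive, 0 to 3 in Ptgis-positive, 1 to 4 in Ptgds-positive and 0 to 1 in Ptger4-positive cells. Among cells with few differentiation UMIs the numbers were 1 in Ptgs1-positive, 2 in Ptgs2-positive and 0 in Ptger4-positive cells. DESeq2 gave no adjusted p for 13 member values, which are not counted as lost. No member reversed a called direction in any alternative. Of the members' 140 old-over-young values under alternatives, 3 moved by more than the spread between populations. With 3 populations a group, old against young had little power, and thinning to 5000 UMIs lowered 59 of the 60 shares of cells.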

Other observations

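Markers of other cell types had ranges that overlapped between young and old populations. The 8 endothelial markers summed to 1.40 to 59.6 unscaled CPM in young and 1.23 to 2.03 in old populations, and the 4 Schwann cell markers to 0.576 to 21.8 and 1.05 to 3.06. The 9 fibro-adipogenic markers summed to 258 to 434 unscaled CPM in young and 206 to 349 in old populations, and the 8 smooth muscle and pericyte markers to 194 to 782 and 40.5 to 1505. The 9 myogenic markers summed to 214 to 2284 unscaled CPM in young and 282 to 3669 in old populations.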
